A study of Mus musculus with 12 samples.

Results

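The mitochondrial chromosome of the mouse holds 37 genes, which are 13 mRNAs, 22 tRNAs and 2 rRNAs. All 37 were described here, whether or not they carried an m6A peak, and their peaks were those placed on chromosome MT. These were 11 of the 27292 peaks of the OVA list and 18 of the 26102 peaks of the PBS list. At least 1 peak was called on 14 of the 37 genes, out of 14988 genes with a peak in either list.

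The mitochondrial mRNAs encode core subunits of the respiratory chain and of ATP synthase, which turn nutrients into ATP at the inner mitochondrial membrane, and the tRNAs and rRNAs serve the translation of these mRNAs inside the organelle. Both strands of the circular genome are transcribed as long precursors, from which the RNAs are cut, often at the tRNAs that lie between the longer genes. N6-methyladenosine (m6A) is best known as a mark that the nuclear METTL3-METTL14 complex places on mRNAs made in the nucleus, and an antibody signal on mitochondrial RNA shows enrichment without naming the enzyme behind it.

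The study profiled m6A in lung tissue of female BALB/c mice, aged 6 to 8 weeks, with and without allergic asthma. Mice of the OVA group were injected intraperitoneally with ovalbumin and the adjuvant aluminum hydroxide on days 0 and 7, and breathed an aerosol of 3% ovalbumin for 30 min a day from day 14 to day 20. Mice of the PBS group, the normal controls, received phosphate-buffered saline alone at both steps. The paper describes collection of the lungs on day 21, after a test of the airways with nebulized methacholine under anesthesia. From 3 mice of each group, rRNA-depleted and fragmented RNA was sequenced after immunoprecipitation with an m6A antibody (IP) and without it (input), which made 12 libraries.

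The data are 1 deposited peak list per group. A peak is a stretch of a gene's exons in which IP reads exceed input reads, and its fold enrichment says how many times the IP signal exceeded the input, as given by the peak caller. The significance of a peak is given as the log10 of its false discovery rate (FDR), so that more negative values stand for stronger calls. With 1 list per group there was no value per mouse, no spread between mice and no test here, and every comparison below is a description of 2 lists. The paper made its own comparison of the groups and reported hypomethylated peaks on mt-Nd3 and mt-Nd4 in the OVA group. The lists hold no read counts, so the depth behind a peak is unknown. Both lists were made separately, and a fold enrichment set across them also depends on how well each immunoprecipitation worked. Positions are on chromosome MT of GRCm38, counted from 1, and a peak belongs to the gene on which it was called.

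The OVA list had peaks on 7 of the 37 genes, and the PBS list on 14. The 7 genes of the OVA list all had a peak in the PBS list too, and the other 7 genes had a PBS peak and no OVA peak. Over all genes with a PBS peak, 8.10% had none in the OVA list. The 7 genes with a PBS peak alone were mt-Rnr2, mt-Co1, mt-Co2, mt-Atp8, mt-Atp6, mt-Co3 and mt-Nd3, and the last 6 follow each other, with tRNAs between some of them, from position 5328 to position 9806. In that stretch the PBS list had 7 peaks and the OVA list had 0, and no OVA peak was found over 4925 bases, between the peak ending at position 4951 and the peak starting at position 9877. No gene had a peak in the OVA list alone. The remaining 23 genes, mt-Rnr1 and the 22 tRNAs, stood without a peak.

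Each of the 11 OVA peaks shared at least 1 base with a PBS peak, whereas 19.4% of the peaks of the whole OVA list had no overlapping PBS peak. Among the 18 PBS peaks, 9 had an overlapping OVA peak and 9 had none, and in the whole PBS list 14.5% of the peaks had no overlapping OVA peak. The OVA peaks covered 2833 bases of the chromosome and the PBS peaks 7903 bases. Every base of the OVA peaks lay inside a PBS peak, and 35.8% of the bases of the PBS peaks lay inside an OVA peak. The mitochondrial peaks of the OVA list were thus nested within those of the PBS list.

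**Figure D1:**
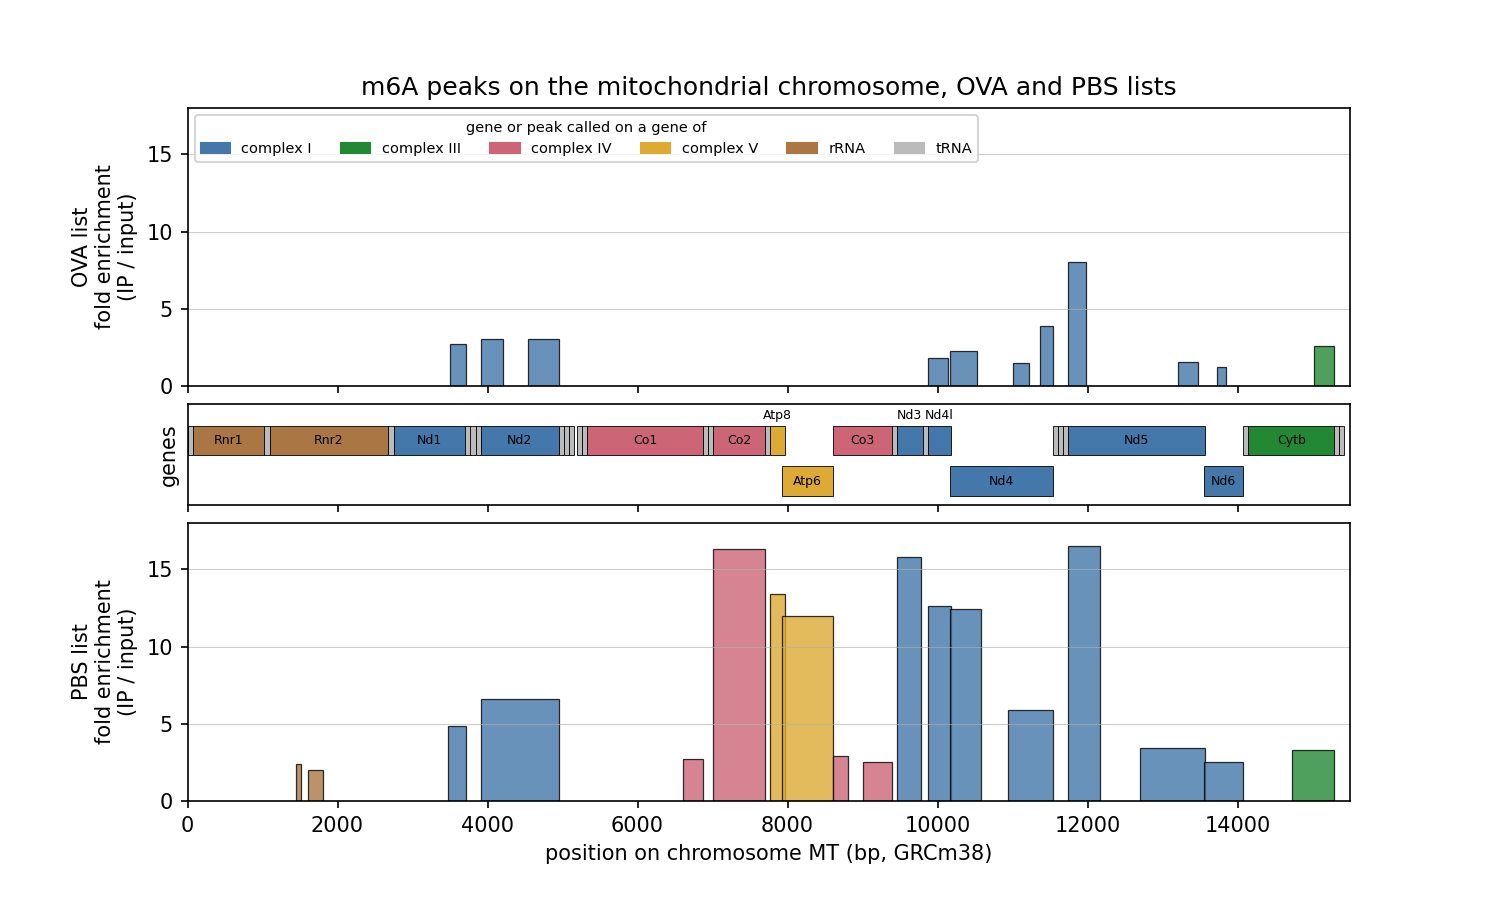
Map of chromosome MT, with the position in bp on the horizontal axis and the fold enrichment (IP over input) on the vertical axes. Each bar is 1 peak, as wide as the peak, in the OVA list (top) or in the PBS list (bottom), and the middle row shows the 37 genes, colored by respiratory complex or RNA class. The OVA list has no bar from mt-Co1 to mt-Nd3, where the PBS list has 7.

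The fold enrichment of the mitochondrial peaks was low within the OVA list. It ranged from 1.25 to 8 with a median of 2.61, beside a median of 5.59 and quartiles of 2.91 and 11.4 over all OVA peaks, and 10 of the 11 peaks lay under the median of their list. In the PBS list it ranged from 2 to 16.5 with a median of 5.39, beside a median of 5.44 and quartiles of 2.86 and 10.9 over all PBS peaks. Of the 18 PBS peaks, 7 had a fold enrichment of at least 10, above the upper quartile of their list, and 0 of the 11 OVA peaks did. Against its own list, the median mitochondrial peak thus stood, by fold enrichment, above 20.5% of all peaks in the OVA group and above 49.3% in the PBS group. This placing depends on the peaks kept. Among mitochondrial peaks that the annotation assigned to a protein-coding transcript, the median was 2.02 (OVA) and 12.4 (PBS). The values over all peaks were near each other in the lists, and those of the mitochondrial peaks were not.

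By significance, the OVA peaks lay nearer to their list. Their median log10 FDR was -27.4, beside -22.9 over the whole OVA list, and that of the PBS peaks was -67.5, beside -20.3 over the whole PBS list. In the OVA list 4 mitochondrial peaks had a fold enrichment under 2, with a median log10 FDR of -24, whereas the 2754 OVA peaks under that fold had a median of -4.92. Among these 4 peaks, those on mt-Nd4l (-31.9) and mt-Nd4 (-27.4) were stronger calls than the median of the OVA list, and those on mt-Nd5 (-20.7) and mt-Nd6 (-5.79) were weaker.

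When each OVA peak was set beside the PBS peak that overlapped it most, the PBS peak had the higher fold enrichment in 11 of 11 pairs. Over all 22006 such pairs of the lists, the PBS peak was higher in 40.0%, and the ratio of PBS over OVA had a median of 0.923 and quartiles of 0.733 and 1.17. In the mitochondrial pairs the ratio ran from 1.26 to 7.04 with a median of 2.16, and it was at least 2 in 8 of the 11, against 6.79% of all pairs. The 11 pairs are not all separate, as they used 9 PBS peaks. The PBS peaks on mt-Nd2 and toward the end of mt-Nd4 were each paired with 2 OVA peaks, and the median is the ratio on mt-Nd2. By the share of the own list with a lower fold enrichment, a rank that does not depend on the scale of a list, the PBS peak also stood higher in 11 of 11 pairs, and in 44.2% of all pairs.

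Complex I, or NADH dehydrogenase, takes electrons from NADH and is the complex with the most subunits from this genome. All 7 of its mitochondrial genes had a PBS peak, and 6 of them, without mt-Nd3, had an OVA peak. Its 10 OVA peaks had a median fold enrichment of 2.49 and covered 40.4% of the summed length of these genes, and its 9 PBS peaks had a median of 6.61 and covered 74.2%.

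On mt-Nd1, a membrane subunit, both lists had 1 peak that ended with the last base of the gene at position 3707. The OVA peak started at position 3498, with a fold enrichment of 2.72 and a log10 FDR of -7.89. The PBS peak started at position 3468, with a fold enrichment of 4.87 and a log10 FDR of -26.4. This was one of the pairs closest in width, 210 bases (OVA) against 240 bases (PBS).

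The next gene, mt-Nd2, carried 1 long peak in the PBS list and a pair of shorter ones in the OVA list. The PBS peak ran over all 1038 bases of the gene, from position 3914 to position 4951, with a fold enrichment of 6.61 and a log10 FDR of -167. The OVA peaks covered the start of the gene, from 3914 to 4210, and its end, from 4536 to 4951, each with a fold enrichment of 3.06 and with log10 FDRs of -69.9 and -33.9. Together they covered 68.7% of the gene.

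For mt-Nd3, a small membrane subunit, the PBS list had a peak over 91.7% of the gene, from 9459 to 9777, with a fold enrichment of 15.8, above 87.6% of the PBS list. Its log10 FDR was -15.6, a weaker call than the 6 other PBS peaks with a fold enrichment of at least 10, whose log10 FDRs were -92.8 or lower. It was the 1 complex I gene without an OVA peak.

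The genes mt-Nd4l and mt-Nd4 share 7 bases, at 10167 to 10173, and are carried on 1 mRNA. On mt-Nd4l the lists differed most in fold enrichment. The OVA peak, from 9877 to 10143, had a fold enrichment of 1.79 and a log10 FDR of -31.9. The PBS peak, from 9877 to 10173, had a fold enrichment of 12.6 and a log10 p of -512, with the log10 FDR listed as -Inf. That is 7.04 times the OVA value, over nearly the same bases, and by rank the peak stood above 6.52% of the OVA list and above 80.4% of the PBS list. The entry -Inf, an FDR too small to be stored, stood for 12.1% of the OVA list and 11.3% of the PBS list, and for this 1 mitochondrial peak.

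At the start of mt-Nd4 the peaks were also alike in position and unlike in fold enrichment. The OVA peak, from 10167 to 10526, had a fold enrichment of 2.25 and a log10 FDR of -26.1, and the PBS peak, from 10167 to 10586, had 12.4 and -142, a ratio of 5.51. Toward the end of the gene, the PBS list had 1 peak from 10945 to 11544 with a fold enrichment of 5.92 and a log10 FDR of -101. In its place the OVA list had a peak from 11005 to 11215 with a fold enrichment of 1.5 and a log10 FDR of -27.4, and a peak from 11364 to 11544 with a fold enrichment of 3.87 and a log10 FDR of -31. On mt-Nd4, as on mt-Nd2, stretches joined in the PBS list were split in the OVA list.

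On mt-Nd5, a large membrane subunit, each list had a peak at the start of the gene and another toward its end. The first was the highest mitochondrial fold enrichment of both lists. It ran from 11742 to 11981 in the OVA list, with a fold enrichment of 8 and a log10 FDR of -97.7, and from 11742 to 12160 in the PBS list, with 16.5 and -132. This OVA peak was the 1 mitochondrial peak above the median of the OVA list, where it stood above 62.3% of the peaks. The second ran from 13206 to 13475 in the OVA list, with a fold enrichment of 1.55 and a log10 FDR of -20.7, and from 12698 to 13565 in the PBS list, with 3.4 and -83.2. The start of the gene was thus more enriched than its end in both lists.

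Unlike the other mRNAs, mt-Nd6 is encoded on the light strand, and it overlaps mt-Nd5 by 14 bases at 13552 to 13565. Its OVA peak, from 13725 to 13840, had the lowest mitochondrial fold enrichment of the lists, 1.25, and a log10 FDR of -5.79. Its PBS peak ran over the whole gene, from 13552 to 14070, with a fold enrichment of 2.5 and a log10 FDR of -51.8. The libraries kept the strand of the RNA, as the second cDNA strand was marked with dUTP and degraded. Whether reads were counted by strand when the peaks were called is not stated, so that RNA of mt-Nd5 and mt-Nd6 may not be separated where these genes overlap.

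Complex III passes electrons from ubiquinol to cytochrome c, and mt-Cytb, its 1 subunit from this genome, is the cytochrome b at its core. Both lists had 1 peak at the end of the gene, up to its last base at 15288. It started at 15024 in the OVA list, with a fold enrichment of 2.61 and a log10 FDR of -17.3, and at 14731 in the PBS list, with 3.29 and -43.8. The ratio of 1.26 was the lowest of the 11 pairs.

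Complex IV, or cytochrome c oxidase, hands electrons to oxygen, and its 3 mitochondrial genes form its catalytic core. None of the 3 had an OVA peak, and all 3 had a PBS peak. The largest subunit, mt-Co1, had 1 PBS peak, from 6605 to 6872, over the last 17.3% of the gene, with a fold enrichment of 2.71 and a log10 FDR of -43.4. The subunit mt-Co2, which receives the electrons from cytochrome c, had a PBS peak over all of its 684 bases, from 7013 to 7696, with a fold enrichment of 16.3 and a log10 FDR of -183. On mt-Co3 the PBS peaks lay from 8607 to 8810, with a fold enrichment of 2.92 and a log10 FDR of -7.51, and from 9013 to 9390, with 2.51 and -15.8. Within complex IV, the peak on mt-Co2 thus stood far above the others, at a rank above 88.4% of the PBS list, whereas those on mt-Co1 and mt-Co3 stood above 19.6% to 25.8%.

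Complex V is ATP synthase, and mt-Atp6 and mt-Atp8 encode subunits of its membrane part. They overlap by 43 bases, at 7927 to 7969, and lie on 1 mRNA. Neither had an OVA peak, and both were covered from the first base to the last in the PBS list. The peak on mt-Atp8, from 7766 to 7969, had a fold enrichment of 13.4 and a log10 FDR of -92.8. The peak on mt-Atp6, from 7927 to 8607, had a fold enrichment of 12 and a log10 FDR of -124. Since their genes overlap, these peaks share bases and are not separate measurements there. The peak on mt-Co3 shares 1 base with that on mt-Atp6.

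**Figure D2:**
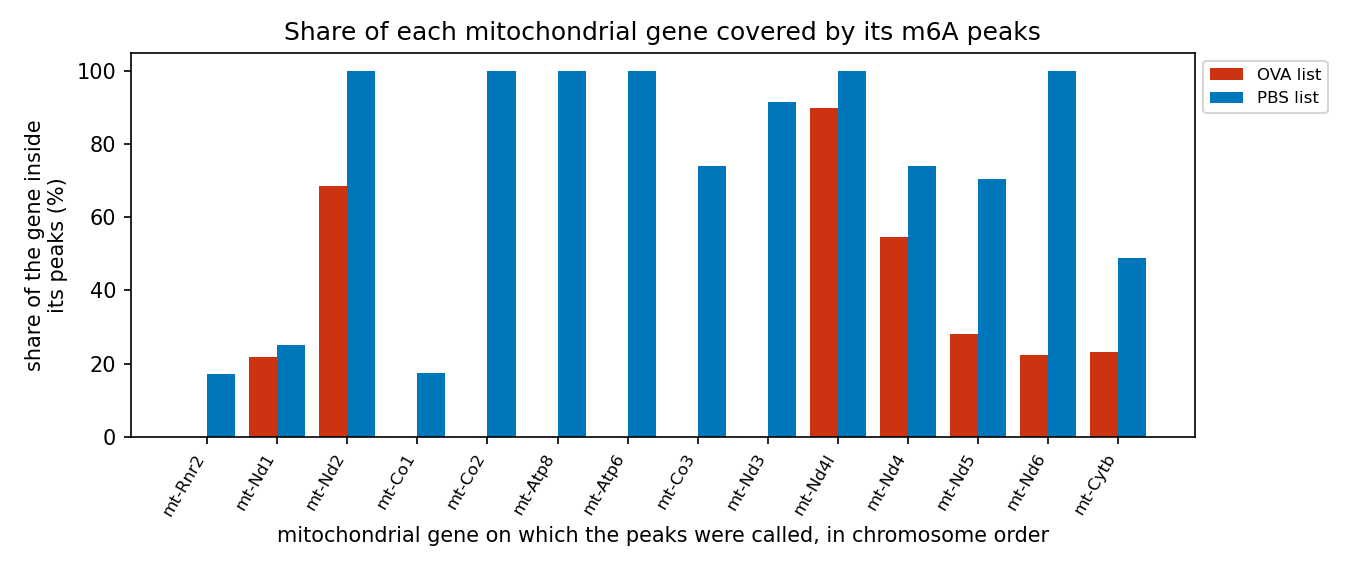
Share of each gene, in percent of its length, that lay inside peaks called on it, for the 14 mitochondrial genes with a peak, in chromosome order. Bars are the OVA list (red) and the PBS list (blue), and a missing bar is a share of 0. The share was higher in the PBS list for all 14 genes, and it reached 100% for 6 of them.

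The PBS peaks often filled a gene. Of the 18, 6 ran from the first base to the last base of their gene, on mt-Nd2, mt-Co2, mt-Atp8, mt-Atp6, mt-Nd4l and mt-Nd6, and 0 of the 11 OVA peaks did. Among nuclear peaks that were called on and assigned to the same gene, 0.631% of 20132 PBS peaks and 0.657% of 21141 OVA peaks spanned the whole assigned transcript, which for most nuclear genes is far longer and has introns. Peaks started at the first base of the gene in 10 cases in the PBS list and 4 in the OVA list, and ended at the last base in 12 and 4. A peak is called along the exons of 1 gene and stops at its ends, so that it does not show whether the enrichment went on in the neighboring gene. The median width was 398.5 bases in the PBS list and 265 in the OVA list, beside 327 and 329 over all peaks of these lists. Over the 13 mRNAs, the PBS peaks covered 67.5% of the summed length and the OVA peaks 24.8%.

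Among the RNAs of the mitochondrial ribosome, mt-Rnr2, the large subunit rRNA, had a pair of peaks in the PBS list and none in the OVA list. They lay from 1452 to 1512, with a fold enrichment of 2.41 and a log10 FDR of -4.88, and from 1601 to 1810, with 2 and -30. These were the lowest fold enrichments of the PBS list on this chromosome, and the peaks covered 17.1% of the gene. The small subunit rRNA, mt-Rnr1, had no peak. The libraries had been depleted of rRNA before the immunoprecipitation, and the part of that step in these values was not tested.

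None of the 22 tRNAs, which carry the amino acids for mitochondrial translation, had a peak called on it. The annotation of the lists nevertheless assigned 5 OVA peaks and 5 PBS peaks to a tRNA. In the OVA list these were the peak at the end of mt-Nd1, assigned to mt-Ti, the second peak of mt-Nd2, assigned to mt-Tw, the later pair on mt-Nd4, assigned to mt-Th, and the peak on mt-Cytb, assigned to mt-Tt. In the PBS list mt-Ti, mt-Th and mt-Tt were assigned in the same way, and the peak of mt-Co1 and the second peak of mt-Co3 were assigned to mt-Td and mt-Tg. The overlap with the assigned tRNA was 2 bases for mt-Ti and mt-Tw and 0 bases for mt-Td, mt-Tg, mt-Th and mt-Tt, so that these assignments name a neighbor of the enriched gene. In all, called and assigned gene differed for 6 of 11 peaks (OVA) and 7 of 18 peaks (PBS), beside 22.5% and 22.8% of all peaks. All 29 peaks were single blocks and were annotated as exonic.

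Chromosome MT had fewer peaks in the OVA list, whereas the nuclear chromosomes had as many or more. The ratio of OVA to PBS peaks was 0.611 on chromosome MT and lay between 1 and 1.09 on chromosomes 1 to 19 and X. With 29 peaks on chromosome MT, this ratio rests on few calls.

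The respiratory complexes also contain subunits encoded in the nucleus, whose mRNAs are made and modified there. Of 107 nuclear genes named for complexes I to V, assembly factors and like-named pseudogenes included, 36 had an OVA peak and 30 a PBS peak, with 13 of the 36 in the OVA list alone and 7 of the 30 in the PBS list alone. Over all genes with a peak, 11.7% of those in the OVA list and 8.10% of those in the PBS list were in that list alone. Their median fold enrichments were 3.02 (OVA) and 2.66 (PBS), and the PBS peak was the higher one in 9 of 26 overlapping pairs, with a median ratio of 0.893. The whole lists had the same order as these nuclear partners, with a peak on 13906 genes (OVA) and 13365 genes (PBS).

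By complex, 21 of 51 nuclear complex I genes had an OVA peak and 18 a PBS peak, and the highest fold enrichments were those of the assembly factor Ndufaf4, with 24.4 and 17.5, and of the subunit Ndufs4, with 19.4 and 17.3. Ndufa4, without a peak, was listed under both complex I and complex IV and counts once among the 107 genes. For complex II, which takes electrons from succinate and has no subunit from the mitochondrial genome, all 4 genes had an OVA peak, led by Sdhd with 5.47 and Sdhc with 4.64, then Sdhb and Sdha, and Sdhd with 4 and Sdha with 1.33 had a PBS peak. For complex III, Uqcrb, Uqcr10 and Uqcrfs1 of 11 genes had a peak in both lists, with the highest values for Uqcrb (2.58) and Uqcr10 (2.53) among OVA peaks and for Uqcr10 (3.18) and Uqcrfs1 (2.5) among PBS peaks. The complexes without mitochondrial OVA peaks had nuclear peaks in both lists. For complex IV, 4 of 20 genes had an OVA peak, Cox7a2l with 11.9, Cox7b with 4.62, Cox7c and Cox6a1, and 4 had a PBS peak, Cox7a2l with 11.8, Cox6a1 with 2.91, Cox6b2 and Cox5b. For complex V, 4 of 22 genes had an OVA peak, Atp5g3 with 3.17, Atp5o with 2.73, Atp5f1 and Atp5h, and 3 had a PBS peak, Atp5s with 3.7, Atp5g3 with 1.83 and Atp5f1.

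Nuclear genes that act on or with mitochondrial RNA had peaks in similar number in both lists. Of 83 genes of mitochondrial ribosomal proteins, 56 had a peak in each list and 52 in both, with median fold enrichments of 5.39 (OVA) and 5.3 (PBS). The highest were Mrpl19 with 51.9 and Mrps7 with 18.7 in the OVA list, and Mrpl45 with 30.6 and Mrps35 with 28.1 in the PBS list. The 4 genes in the OVA list alone were Mrpl3, Mrpl35, Mrpl42 and Mrps22, and the 4 in the PBS list alone were Mrpl11, Mrpl39, Mrpl48 and Mrps14. These were 4 of 56 genes in each list, beside 11.7% (OVA) and 8.10% (PBS) of all genes with a peak in that list. Of 45 genes of mitochondrial transcription, RNA processing and RNA modification, 35 had an OVA peak and 36 a PBS peak, and Fastk was the 1 gene in the PBS list alone. The highest were the transcription factor Mterf1a with 31.7 and Fastkd1 with 29.9 in the OVA list, and Mterf1b with 104 and the RNA-binding protein Slirp with 22.4 in the PBS list.

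Copies of mitochondrial sequence in the nuclear genome can take reads from mitochondrial RNA. None of 8 genes listed as such copies on chromosome 1 had a peak. For Gm10222 and Gm10925, RefSeq gives positions on GRCm38 of 24612404 to 24612700 and of 24613971 to 24614651 on that chromosome. The numbers of OVA and PBS peaks between these outer ends were 0 and 0. These genes are 297 and 681 bases long, as are mt-Nd4l and mt-Atp6. The absence of a peak does not show how reads were placed between the copies and chromosome MT, and this was not tested.

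Whole lung is a mixture of cell types. Among 10 markers of lung epithelium and endothelium, 9 had a peak in both lists, and the surfactant gene Sftpc had none, with the highest fold enrichments for Cldn5 (21.8) and Foxj1 (15.2) in the OVA list and for Foxj1 (17.3) and Cldn5 (10.8) in the PBS list. Among 16 genes of heart and striated muscle, tissues rich in mitochondria, 9 had a PBS peak and 2 an OVA peak. The PBS genes were Ttn, Xirp2, Myh7, Myh6, Tcap, Pln, Ryr2, Tnnt2 and Trdn, with 67 peaks, 40 of them on Ttn, and the highest fold enrichments on Xirp2 (26.6) and Ttn (10.6). The OVA genes were Ttn and Ryr2, with 26 peaks, 23 of them on Ttn, and fold enrichments of up to 22.6 and 10.8. Of the 9 PBS genes 7 had no OVA peak, against 8.10% of all genes with a PBS peak. Of the 67 PBS peaks 49 had no overlapping OVA peak, against 14.5% of all PBS peaks. This gene list was chosen with earlier results of these data known. The paper reports Trdn, Tcap and Xirp2 as hypomethylated in the OVA group, and Tcap and Xirp2 as lower in expression. The shares for this list are therefore not independent of its choice. The genes Actc1, Tnni3, Mybpc3, Nppa, Ckmt2, Cox6a2 and Cox7a1 had no peak in either list. Mouse lung also holds heart muscle in the walls of the pulmonary veins, and with these genes it cannot be told apart from muscle of other tissue. Overlapping pairs existed only on Ttn and Ryr2, the muscle genes with an OVA peak, so that they do not describe the other muscle genes. In these pairs the PBS peak was higher in 9 of 23, against 40.0% of all pairs. Their median ratio of PBS over OVA was 0.818, between the quartiles of 0.733 and 1.17 of all pairs. The part of muscle RNA in the mitochondrial result was not tested. In whole lung, fewer cells of a type and less RNA per cell cannot be told apart.

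Immune cell markers had peaks in both lists. Of 8 genes of eosinophils and granulocytes, Il5ra (21.8), Ccr3 (13) and Cebpe had an OVA peak, and Il5ra (52.3), Ccr3 (6.17), S100a9 and S100a8 a PBS peak, by fold enrichment, and the eosinophil granule genes Epx and Prg2 and the surface receptor gene Siglecf had none. The highest peak of Il5ra had a log10 FDR of -192 (OVA) and -15.8 (PBS), and that of Ccr3 -252 (OVA) and -1.87 (PBS), so that both were stronger calls in the OVA list, whatever the order of their folds. Of the T and B cell genes, Cd3e (5.9), Cd4 (3.38), Ms4a1 and Cd8a had an OVA peak, and Cd3e (10.4), Cd4 (4.56) and Ms4a1 a PBS peak, and the B cell gene Cd79a had none. By lowest log10 FDR, the OVA call was the stronger one for Cd3e (-36.6 against -29.4), Cd4 (-26.6 against -8.5) and Ms4a1 (-172 against -25.6). A peak needs both RNA and enrichment, so that its absence does not show that a gene was not expressed.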

How the data were processed

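Lung RNA from 3 mice per group gave an IP and an input library each. The authors trimmed reads with FASTP and aligned them to the Ensembl version 101 mouse genome (HISAT2). They used exomePeak for peak calling and ChIPseeker for annotation. Tool versions and the way replicates were combined into 1 list are not given in the sources used here. The deposited significance scores are the log10 of a peak's p value and FDR, and the deposited fold enrichment is a ratio of IP over input, both as the authors' caller gave them. Deposited starts count from 0, and 1 was added.

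Called genes were named through their Ensembl identifiers. The 37 genes and their positions were taken from RefSeq on GRCm38, and all 18 mitochondrial genes assigned in the lists had the same start and end there. Peaks overlapped when their exonic blocks shared at least 1 bp, and a peak was paired with the one sharing most bases. No test was run. Named are all mitochondrial genes with a peak, the 2 genes of each other list with the highest fold enrichment in each group, and all genes of counts of 5 or fewer in the lists where the text gives them. The named genes beyond that rule were chosen after their values were seen. Members and gene lists were chosen with earlier results of these data known. Alternatives were an FDR under 0.05, a fold enrichment of at least 2, other overlap rules and other gene assignments. Some marker genes are not reported here. The overlap routine was tested on simulated data. Python 3.11.15 with pandas 2.3.3 and matplotlib 3.10.9 was used.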

Additional observations from a re-analysis of the deposited data

How the results depend on the processing

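Of 40 alternatives, 18 left the same peaks or pairs, so that their values were fixed and say nothing of stability: an FDR under 0.05, spans in place of blocks, pairs on the same gene and, for PBS peaks, a fold enrichment of at least 2. Of the other 22, 13 stayed within 1.5 times of the reported value. Under a fold enrichment of at least 2, the OVA list kept 7 mitochondrial peaks instead of 11, and 7 OVA peaks overlapped a PBS peak of that fold. Counting only peaks assigned to a protein-coding transcript left 6 OVA and 11 PBS peaks, and the median PBS fold enrichment became 12.4 instead of 5.395, since peaks assigned to tRNAs and rRNA drop out. When 50% of each peak had to be shared, 4 peaks of the OVA group and 4 of the PBS group overlapped, and with identical start and end 0 and 0 did. The number of genes with a peak ranged from 5 to 10 in the OVA list and from 14 to 17 in the PBS list. The comparison of fold enrichment within pairs was itself chosen after seeing the data, and so were its alternatives. The PBS fold enrichment was the higher one in all pairs under 3 of them: 9 pairs formed from the PBS peaks, 3 pairs of widths within 1.5 times and 11 pairs by rank.

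No paired analysis was possible because there is 1 list per group and it holds no value of a single mouse. For the same reason no alternative left out a mouse. The share of single mice, of depth and of the immunoprecipitation in the differences between the lists was not tested.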
